A study of Mus musculus with 12 samples.

Results

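The 38 genes described here are immediate-early and other activity-regulated genes, which neurons transcribe within minutes to hours of synaptic input. They were chosen by name: each of 38 symbols was matched through GENCODE M21 to its Ensembl identifier, and all 38 were found among the 54232 rows of the count table. The rule itself uses no measured value. All 38 passed the filter on low counts and were tested among 18016 genes.

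Messenger RNA of the cortex was sequenced in 12 C57BL/6J mice aged 12 weeks. The 6 mutants, 3 females and 3 males, were homozygous for the Y446C missense allele of Tbl1xr1, which models Pierpont syndrome. The 6 wild types were likewise 3 females and 3 males. The labels name no stimulus or drug, and give exsanguination as the way of death and freezing of the cortex right after it. Libraries are named by sex, genotype and animal number, for example female mutant 3. A missense allele need not alter the transcript level, so the count of Tbl1xr1 cannot check the genotype labels. The labels give neither litter nor time of day, nor how long the dissection of each animal took, so p-values measure the spread between these animals.

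Calcium entering through synaptic receptors and voltage-gated channels activates kinases that phosphorylate transcription factors already bound to DNA, such as CREB and serum response factor, which start transcription of immediate-early genes without new protein synthesis. A first group of products are themselves transcription factors: the AP-1 subunits, the EGR zinc-finger proteins, the NR4A orphan nuclear receptors and NPAS4. A second group act at the synapse, as secreted signals or as brakes on the kinase cascade. In cortex their RNA is widely used to read recent neuronal activity, and it is also sensitive to the way an animal was handled before death. TBL1XR1 itself is a subunit of the NCoR and SMRT corepressor complexes, which silence genes through a histone deacetylase.

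CREB binds the cAMP response element TGACGTCA or its shorter core TGACG, and this core is shown in the start regions of 6 members. Fos, Junb, Nr4a1 and Nr4a3 are shown because the last 3 had the highest Pearson's r with Fos across animals, and Dusp1 and Btg2 because they carry the full palindrome. Capitals mark TGACG on either strand (CGTCA on the printed one), and neighbouring matches merge in TGACGTCA. Each window holds 250 bases before and 50 from the RefSeq start on, 5′ to 3′ on the strand of the gene, GRCm38.p6. The locations are chr12:85473640-85473939 (+ strand) for Fos, chr8:84978699-84978998 (- strand) for Junb, chr15:101266596-101266895 (+ strand) for Nr4a1, chr4:48045055-48045354 (+ strand) for Nr4a3, chr17:26508423-26508722 (- strand) for Dusp1 and chr1:134079106-134079405 (- strand) for Btg2.
Fos: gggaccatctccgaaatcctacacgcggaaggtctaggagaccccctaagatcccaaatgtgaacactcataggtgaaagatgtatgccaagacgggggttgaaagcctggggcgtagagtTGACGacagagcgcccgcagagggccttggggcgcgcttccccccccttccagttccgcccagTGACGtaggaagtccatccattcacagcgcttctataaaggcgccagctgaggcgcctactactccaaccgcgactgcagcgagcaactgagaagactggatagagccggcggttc
Junb: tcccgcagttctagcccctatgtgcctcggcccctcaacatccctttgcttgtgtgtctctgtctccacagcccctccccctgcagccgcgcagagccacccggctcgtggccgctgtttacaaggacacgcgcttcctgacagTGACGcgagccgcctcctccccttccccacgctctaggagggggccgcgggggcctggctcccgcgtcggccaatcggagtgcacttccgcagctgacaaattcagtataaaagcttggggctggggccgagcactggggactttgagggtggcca
Nr4a1: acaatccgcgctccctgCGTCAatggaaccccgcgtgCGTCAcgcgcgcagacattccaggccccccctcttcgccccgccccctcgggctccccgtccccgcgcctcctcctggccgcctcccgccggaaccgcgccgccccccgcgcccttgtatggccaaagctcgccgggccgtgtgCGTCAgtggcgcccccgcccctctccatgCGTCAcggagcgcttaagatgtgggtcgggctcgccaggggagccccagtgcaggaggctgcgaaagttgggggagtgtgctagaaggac
Nr4a3: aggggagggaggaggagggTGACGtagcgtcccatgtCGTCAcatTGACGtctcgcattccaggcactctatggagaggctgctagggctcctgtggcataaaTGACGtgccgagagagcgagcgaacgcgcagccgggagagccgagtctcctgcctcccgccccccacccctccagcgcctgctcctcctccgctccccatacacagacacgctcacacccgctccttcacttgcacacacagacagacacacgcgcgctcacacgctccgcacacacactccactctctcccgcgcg
Dusp1: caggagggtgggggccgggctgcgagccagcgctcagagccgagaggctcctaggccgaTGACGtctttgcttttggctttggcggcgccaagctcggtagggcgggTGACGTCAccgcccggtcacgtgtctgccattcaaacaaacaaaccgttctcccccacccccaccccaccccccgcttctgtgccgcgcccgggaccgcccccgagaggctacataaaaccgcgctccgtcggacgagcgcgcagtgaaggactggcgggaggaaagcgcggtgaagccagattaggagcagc
Btg2: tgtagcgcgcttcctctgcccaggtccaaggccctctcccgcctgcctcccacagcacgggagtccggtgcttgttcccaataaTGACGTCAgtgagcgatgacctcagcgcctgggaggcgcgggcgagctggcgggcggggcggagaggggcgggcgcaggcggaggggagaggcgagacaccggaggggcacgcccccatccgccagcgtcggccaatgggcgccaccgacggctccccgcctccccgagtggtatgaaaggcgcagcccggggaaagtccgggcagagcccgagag

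RefSeq windows were at hand for 28 of the 38 members, 35 windows in all. TGACG or CGTCA stood in 57.1% of these 35 windows and in the windows of 17 of the 28 members, against 20.8% of all 32851 promoter windows. The full TGACGTCA stood in 11.4% of member windows (Btg2, Dusp1, Maff and Plk2), against 1.79% of all. The core holds a CpG, and member windows were richer in CpG, with a median of 23 against 7 per window. The part of base composition in the difference was not tested. The CArG box, the site of serum response factor, stood in 14.3% of member windows, against 1.63% of all windows. These are 5 windows of 2 of the 28 members, 1 of Dusp5 and 4 of Egr2, of which 3 overlap. The EGR site GCGGGGGCG (or its complement) stood in 11.4% against 2.91%, and TATAAA in 17.1% against 13.6%. The AP-1 site TGANTCA stood in 0 of 35 member windows, against 7.81% of all. Every motif was searched on both strands. These are matches of letters in a short window and were not tested as binding sites.

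Counts assigned to genes ran from 21238427 to 32669138 in 11 libraries, where 3 counts amount to 0.0861 to 0.137 CPM (counts per unit of library size, the size scaled by TMM). Female mutant 3 stood apart, with 3748515 counts and a mitochondrial share of 31.6%, against 5.23% to 10.4% in the others, and 3 counts amount to 1.16 CPM there, a limit that covers counting error alone. Counts of members at an unadjusted p below 0.05 in each comparison are therefore given with and without it. Markers of cortical neurons were present in every library: the summed level of 9 excitatory neuron markers ran from 2844 to 4566 CPM in mutants and from 3627 to 4412 CPM in wild types, and none of the 9 had a library at 0. The 8 striatal markers, which should be low in cortex, summed to 151 to 655 CPM in mutants and 314 to 1171 CPM in wild types, none of the 8 had a library at 0, and all 8 had a negative log2 fold change, 5 of them at an unadjusted p below 0.05. Of the other marker lists, 3 of 6 astrocyte markers stood at an unadjusted p below 0.05 with a positive fold change, and 2 of 7 inhibitory neuron markers and 1 of 8 hippocampal markers with a negative one. Astrocyte markers summed to 1442 to 2027 CPM in mutants and 1499 to 1720 CPM in wild types, inhibitory neuron markers to 898 to 1113 CPM in mutants and 999 to 1212 CPM in wild types, and hippocampal markers to 153 to 417 CPM in mutants and 294 to 438 CPM in wild types, where 1 of the 8 was at 0 in female mutant 3 alone. In the oligodendrocyte, microglial, vascular and heat-shock lists 0 markers stood at an unadjusted p below 0.05. Without female mutant 3, 7 of 8 striatal markers did by edgeR, all lower in mutants. Of the 6 astrocyte markers 5 did, 4 of them higher and 1 lower, where 7.46% of all genes did. The part of these tissue differences in the results below was not tested.

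Levels were compared between genes as CPM per kilobase of exon in the 6 wild types. Egr1, a zinc-finger factor required for lasting synaptic plasticity, was the most abundant member, at 86.9 ± 22.5 CPM per kilobase (SD, n = 6). Arc, which removes AMPA receptors from the synapse, followed at 47.2 ± 17.7, then Egr3 at 40.9 ± 8.12, Plk2, a kinase of homeostatic synaptic scaling, at 40.3 ± 4.66, Homer1, a postsynaptic scaffold, at 34.7 ± 7.44 and Jund at 25.5 ± 2.21. The intervals of 1 SD of Egr1 and Arc overlapped at their ends, and those of Arc, Egr3, Plk2 and Homer1 overlapped one another. Fos stood at 10.6 ± 2.54, and Npas4 at 6.16 ± 1.23. In all, 17 members stood at 10 CPM per kilobase or more, 20 at 1 to 10, and only Maff, a small MAF protein that pairs with leucine-zipper factors, below 1, at 0.197 ± 0.0457. Maff had 0 counts in female mutant 3, where 3 counts would allow up to 1.16 CPM, and 0.310 to 0.665 CPM in the 11 other libraries.

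**Figure D1:**
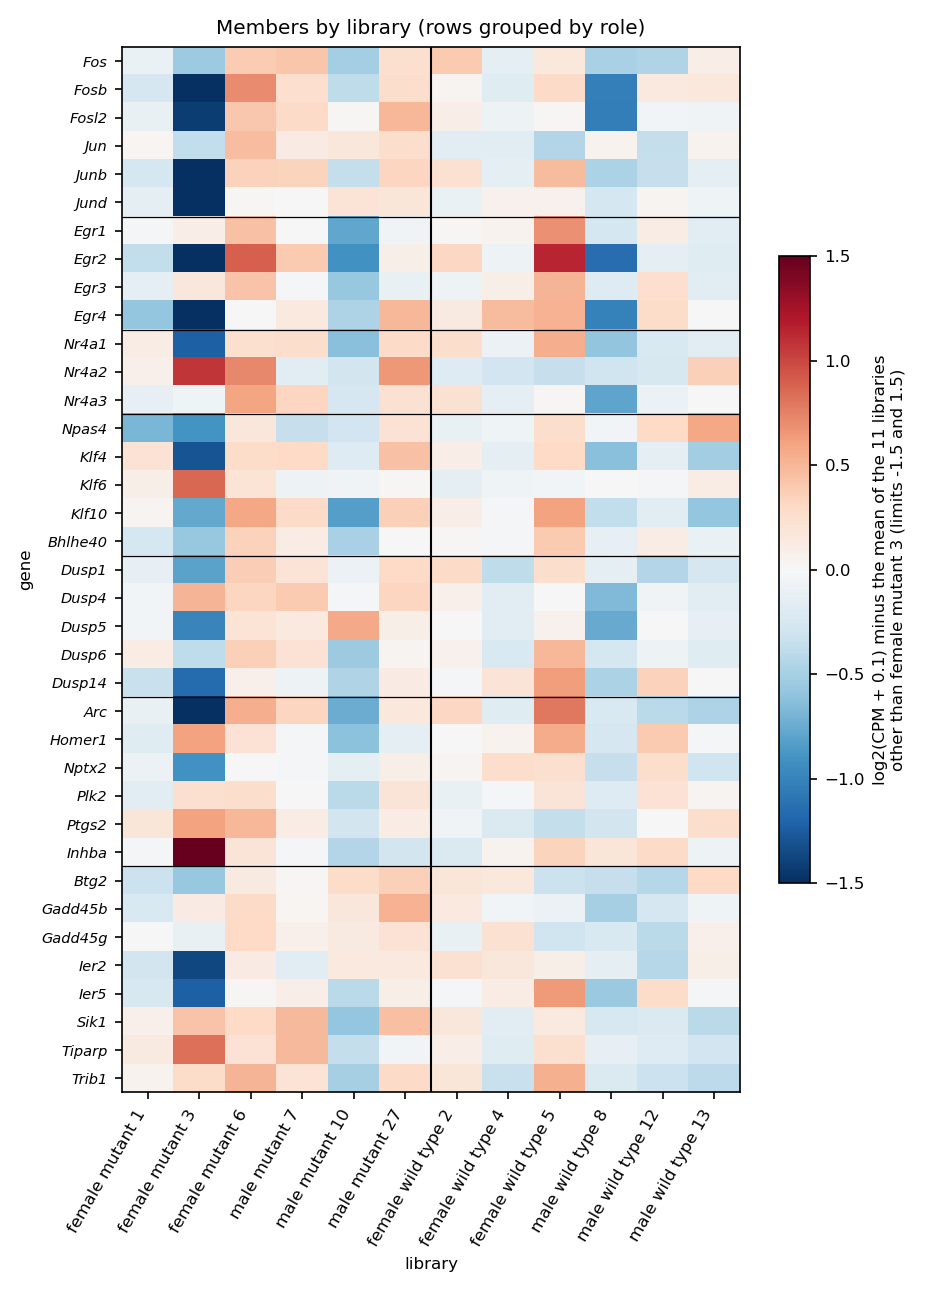
Each column is 1 library, mutants left of the vertical line and wild types right of it, and each row is 1 of 37 members (Maff left out), grouped by role. Colour is log2(CPM + 0.1) minus the mean of the 11 libraries other than female mutant 3. Male mutant 10 and male wild-type 8 hold the lowest of 11 libraries in 14 rows each, and female wild-type 5 the highest in 15; female mutant 3 holds extremes of both colours.

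No member passed the test between mutants and wild types over both sexes. The test was edgeR's quasi-likelihood test with a term for sex, adjusted over 18016 genes by Benjamini-Hochberg: 0 of 38 members passed an adjusted p of 0.05, where 0.00555% of all genes (1 gene) did. Log2 fold changes of mutant over wild type ran from -0.40 to 0.54, positive for 22 members and negative for 16, with a median of 0.080, against -0.010 over all genes. At an unadjusted p below 0.05 stood 4 members (10.5%), against 3.96% of all genes, and none of the 38 separated the 6 mutants from the 6 wild types without overlap, against 0.438% of genes. Whether a level reflects fewer active cells or less RNA per cell cannot be told apart in bulk tissue. Without female mutant 3, 26 fold changes were positive and 12 negative, with a median of 0.16, and 6 members stood at an unadjusted p below 0.05, against 7.46% of genes: Jun, Dusp4, Klf4, Dusp5, Fosl2 and Gadd45g, all higher in mutants, as 3.21% of genes were at that p. By the adjusted p 0 members passed, against 0.0108% of genes.

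Among the AP-1 subunits, Fos had 17.4, 26.9 and 34.0 CPM in the 6 mutants, against 18.2, 25.2 and 33.5 CPM in the 6 wild types (lowest, median and highest). The ranges almost coincided, and the means were 26.0 ± 7.42 CPM in mutants and 24.9 ± 5.98 CPM in wild types (SD, n = 6 each), a log2 fold change of 0.10 ± 0.20 (SE). Fosb, whose truncated form accumulates with repeated activity, had 1.94, 15.6 and 25.2 CPM in the 6 mutants, against 7.50, 16.4 and 18.7 CPM in the 6 wild types. The lowest mutant value was that of female mutant 3, which rests on 5 counts, and the log2 fold change was 0.069 ± 0.33 with it and 0.23 ± 0.22 without it. Junb, an AP-1 subunit that can oppose Jun, had 5.03, 33.2 and 40.6 CPM in the 6 mutants, against 23.0, 29.0 and 44.2 CPM in the 6 wild types. Here again the lowest value belonged to female mutant 3, and the sign turned on it: -0.02 ± 0.32 with all libraries and 0.19 ± 0.17 without it. Junb shares exon bases with Prdx2, an abundant gene on the opposite strand, and the strand setting of the counting is not given in the sources used here.

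Jun, the main partner of Fos, stood nearest to a difference in this family. It had 35.2, 50.3 and 62.5 CPM in the 6 mutants, against 33.5, 40.4 and 47.0 CPM in the 6 wild types, and 5 of the 6 mutants lay above the wild-type median. The log2 fold change was 0.31 ± 0.13, with an unadjusted p of 0.0291 and an adjusted p of 0.950 in the edgeR fit. Without female mutant 3, the lowest mutant, it was 0.38 ± 0.10 with an adjusted p of 0.437, the lowest of any member. The other 3 subunits were Fosl2, with means of 53.3 ± 19.3 CPM in mutants and 46.3 ± 10.8 CPM in wild types and a log2 fold change of 0.22 ± 0.26, Jund at -0.073 ± 0.21 and Maff at -0.075 ± 0.30. Mutant values ran from 19.0 to 72.2 CPM for Fosl2 and from 12.8 to 50.3 CPM for Jund, with female mutant 3 lowest in both, and wild-type values from 24.7 to 54.5 and from 36.4 to 45.9 CPM.

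All 4 EGR factors had negative fold changes, none beyond the spread between animals. Egr1 had 211, 358 and 491 CPM in the 6 mutants, against 301, 369.9 and 583 CPM in the 6 wild types, and its log2 fold change was -0.12 ± 0.16. Egr2, which also directs myelination in peripheral nerve, had 1.16, 9.84 and 20.01 CPM in the 6 mutants, against 4.82, 9.92 and 23.8 CPM in the 6 wild types, a log2 fold change of -0.049 ± 0.40 that became 0.13 ± 0.31 without female mutant 3. Egr4 had 3.48, 9.16 and 15.0 CPM in the 6 mutants, against 5.18, 12.2 and 15.2 CPM in the 6 wild types. Its fold change, -0.26 ± 0.29, was the most negative of the family, and the ranges overlapped over most of their length. Egr3 averaged 168 ± 38.0 CPM in mutants and 180.1 ± 35.8 CPM in wild types, with a log2 fold change of -0.11 ± 0.14.

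The 3 NR4A receptors, which act without a known natural ligand, had 2 positive fold changes and 1 negative one, -0.013, with all libraries. Without female mutant 3 all 3 were positive, at 0.16 to 0.40. Nr4a2, also the factor that specifies midbrain dopamine neurons, had 53.1, 84.1 and 136 CPM in the 6 mutants, against 50.5, 53.6 and 82.4 CPM in the 6 wild types. In mutants 3 libraries exceeded 100 CPM, and in wild types none did, but the lowest 3 mutant values lay among the wild types. With all 12 libraries the log2 fold change, 0.54 ± 0.23, was the largest of any member. Its unadjusted p was 0.0322 and its adjusted p 0.950 in the edgeR fit. Female mutant 3 was the highest library for Nr4a2. Without that library the highest log2 fold change of the 3 receptors was 0.40, and that of any member 0.41. There 0 of the 3 receptors stood at an unadjusted p below 0.05 by edgeR. Nr4a1 had 29.0, 77.1 and 83.4 CPM in the 6 mutants, against 45.4, 62.2 and 99.1 CPM in the 6 wild types, a log2 fold change of -0.013 ± 0.25, which became 0.16 ± 0.17 without female mutant 3. Nr4a3 averaged 59.2 ± 13.4 CPM in mutants and 49.96 ± 10.5 CPM in wild types, a log2 fold change of 0.26 ± 0.17.

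Npas4, a factor that is induced by calcium entry rather than by growth factors and that shapes inhibition onto the active neuron, was the one member with a negative fold change at an unadjusted p below 0.05. It had 12.0, 18.1 and 26.1 CPM in the 6 mutants, against 20.8, 24.5 and 33.8 CPM in the 6 wild types. The 4 lowest mutants lay below every wild type, and female mutant 6 and male mutant 27 lay among them. The log2 fold change was -0.40 ± 0.18 (unadjusted p = 0.0443, adjusted p = 0.950, edgeR) and -0.34 ± 0.16 without female mutant 3, where the adjusted p was 0.687. Bhlhe40, a repressor that also dampens the circadian clock, had 64.3, 87.5 and 122 CPM in the 6 mutants, against 87.9, 95.8 and 126 CPM in the 6 wild types, a log2 fold change of -0.15 ± 0.15. Of the Krüppel-like factors, Klf6 averaged 71.5 ± 20.5 CPM in mutants and 60.6 ± 3.42 CPM in wild types, with a log2 fold change of 0.21 ± 0.14 that was 0.067 ± 0.064 without female mutant 3. Klf4 was at 0.30 ± 0.21 over a mutant range of 2.32 to 7.96 CPM and a wild-type range of 3.77 to 7.202 CPM, and Klf10 at 0.12 ± 0.24, with means of 35.4 ± 13.2 CPM and 33.8 ± 10.3 CPM.

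The DUSP phosphatases switch off MAP kinases and so close the loop on the signal that induces them. Dusp4, which acts in the nucleus, had 13.7, 17.7 and 20.1 CPM in the 6 mutants, against 8.86, 13.1 and 14.9 CPM in the 6 wild types. Of the 6 mutants 4 lay above every wild type and the other 2 among them, and the log2 fold change of 0.40 ± 0.14 had the lowest unadjusted p of any member, 0.0115, with an adjusted p of 0.950 in the edgeR fit. The log2 fold change was 0.36 ± 0.13 without female mutant 3. Dusp14, a small phosphatase of the same family, had 16.6, 32.4 and 40.4 CPM in the 6 mutants, against 26.7, 39.8 and 57.6 CPM in the 6 wild types, a log2 fold change of -0.36 ± 0.21. Dusp1, which prefers p38 and JNK, had 14.3, 26.2 and 32.3 CPM in the 6 mutants, against 18.4, 22.0 and 30.5 CPM in the 6 wild types, a log2 fold change of 0.15 ± 0.19. Dusp5, a nuclear phosphatase of ERK, had 5.42, 11.8 and 16.2 CPM in the 6 mutants, against 6.41, 10.4 and 11.4 CPM in the 6 wild types, a log2 fold change of 0.25 ± 0.19, and Dusp6, its cytoplasmic counterpart, averaged 61.1 ± 14.1 CPM in mutants and 60.8 ± 13.4 CPM in wild types, a log2 fold change of 0.024 ± 0.16. The ranges of all 5 overlapped.

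Among the genes that act at the synapse or are secreted, Arc had 34.1, 143 and 203 CPM in the 6 mutants, against 102, 121 and 241 CPM in the 6 wild types. Female mutant 3, at 34.1 CPM, lay below the other 11 libraries, and the log2 fold change was -0.09 ± 0.35 with it and 0.14 ± 0.21 without it. Homer1, whose short activity-induced form is not told from the long one by gene counts, had 245, 355 and 568 CPM in the 6 mutants, against 314, 383 and 553 CPM in the 6 wild types, a log2 fold change of -0.14 ± 0.17. Nptx2, a secreted pentraxin that gathers AMPA receptors on inhibitory neurons, had 17.04, 30.8 and 34.0 CPM in the 6 mutants, against 25.1, 35.2 and 38.5 CPM in the 6 wild types, a log2 fold change of -0.16 ± 0.16. Ptgs2, the inducible cyclooxygenase, had 15.5, 20.8 and 28.7 CPM in the 6 mutants, against 14.6, 17.2 and 22.6 CPM in the 6 wild types, a log2 fold change of 0.29 ± 0.15. Plk2 averaged 183 ± 31.7 CPM in mutants and 181 ± 20.9 CPM in wild types, a log2 fold change of 0.013 ± 0.12. Inhba, the subunit of activin A, averaged 25.1 ± 19.0 CPM in mutants and 20.1 ± 2.97 CPM in wild types; 1 library set that mutant SD, female mutant 3 at 63.5 CPM, and the log2 fold change was 0.14 ± 0.30 with it and -0.20 ± 0.12 without it.

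In the group of growth-arrest and signalling regulators 6 of 8 fold changes were positive. Gadd45b, which takes part in DNA demethylation at activity-regulated genes, had 5.74, 7.49 and 9.72 CPM in the 6 mutants, against 4.77, 6.42 and 7.52 CPM in the 6 wild types, a log2 fold change of 0.30 ± 0.15. Ier5 had 23.6, 51.2 and 59.3 CPM in the 6 mutants, against 37.5, 57.2 and 85.6 CPM in the 6 wild types, with the most negative log2 fold change of the group, -0.30 ± 0.22. Btg2, an antiproliferative factor that recruits the deadenylase of mRNA decay, had 10.1, 15.9 and 19.2 CPM in the 6 mutants, against 11.1, 14.3 and 18.5 CPM in the 6 wild types, a log2 fold change of 0.09 ± 0.18. Trib1, a pseudokinase adaptor of a ubiquitin ligase, had 15.1, 25.3 and 30.5 CPM in the 6 mutants, against 16.2, 17.8 and 31.0 CPM in the 6 wild types, a log2 fold change of 0.24 ± 0.17. All of these ranges overlapped. Sik1, a kinase that holds the CREB coactivators in the cytoplasm, averaged 14.6 ± 3.49 CPM in mutants and 11.5 ± 1.88 CPM in wild types, a log2 fold change of 0.34 ± 0.17. Tiparp, an ADP-ribosyltransferase, was at 0.30 ± 0.15 (means 28.6 ± 8.28 CPM in mutants and 22.8 ± 3.30 CPM in wild types), Gadd45g at 0.25 ± 0.13 (5.90 ± 0.612 and 5.07 ± 0.881 CPM) and Ier2 at -0.08 ± 0.18 (4.64 ± 1.47 and 5.23 ± 0.832 CPM).

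The 4 members at an unadjusted p below 0.05 lie at chr8:34807297-34819894 (Dusp4), chr4:95049034-95052222 (Jun), chr2:57106830-57124003 (Nr4a2) and chr19:4984355-4990316 (Npas4) on GRCm38, per GENCODE M21. Their number depended on single animals and on the fit. It was 6 without female mutant 3 (against 7.46% of genes) or male mutant 10 (3.99%). It was 2 without female mutant 6 (3.47%), male mutant 27 (3.94%), female wild-type 5 (2.81%) or male wild-type 12 (2.88%). With the mitochondrial share as a covariate it was 9, of which 8 were higher in mutants, against 9.77% of genes. That share was 31.6% in female mutant 3 and 5.23% to 10.4% in the others, so the covariate mostly sets that library apart. With limma-voom and library weights the number was 7, of which 4 were higher, against 12.7%. On library totals it was 1, against 3.89%.

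**Figure D2:**
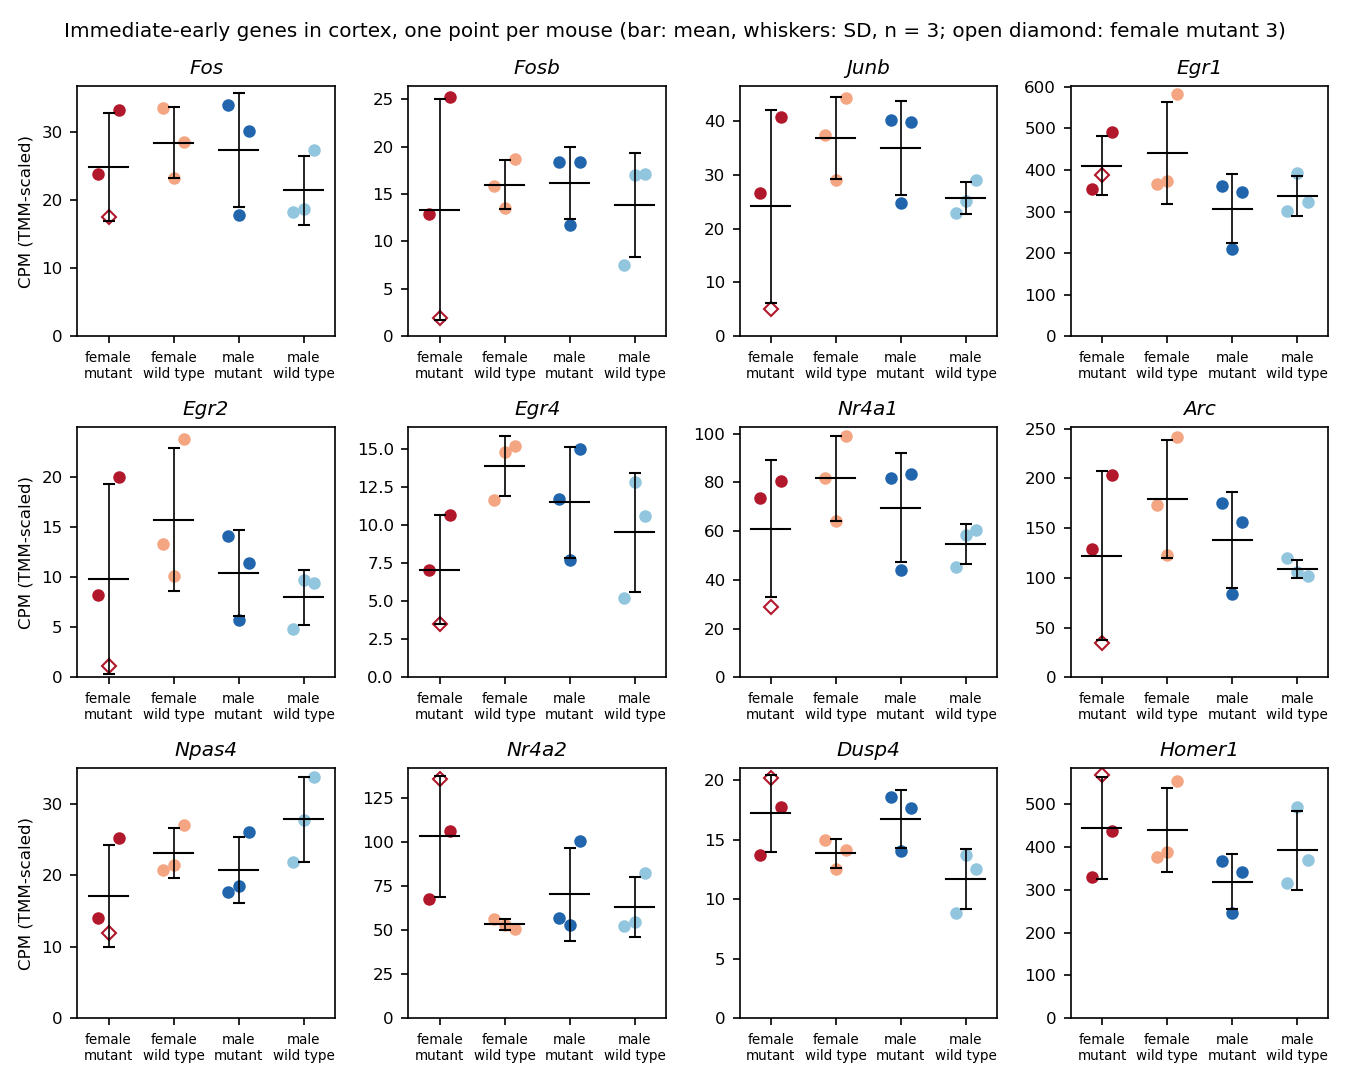
CPM of 12 members, 1 point per mouse, with mutants left of wild types of the same sex; bars and whiskers are the mean and SD of 3 mice, and the open diamond is female mutant 3. The diamond is the lowest point of the panel for Fos, Fosb, Junb, Egr2, Egr4, Nr4a1, Arc and Npas4 and the highest for Nr4a2, Dusp4 and Homer1.

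In females the direction turned on single animals and on the fit, with more negative than positive fold changes in the edgeR fit of all libraries. Of 38 members 0 passed an adjusted p of 0.05 by edgeR, as did 0% of genes; 14 fold changes were positive and 24 negative, with a median of -0.086, against -0.031 over all genes. At an unadjusted p below 0.05 stood 4 members (10.5%), against 11.8% of genes, and 5 members separated the groups without overlap (3 higher and 2 lower in mutants), against 22.5% of genes, so neither share exceeded the background. Without female mutant 3, 21 fold changes were positive and 17 negative, with 4 members at an unadjusted p below 0.05, all higher in mutants, against 9.41% of genes in either direction and 4.94% in that one, and without female wild-type 5 the split was 20 and 18. In limma-voom with library weights 25 were positive and 13 negative, with a median of 0.093. With library totals in place of TMM the median over all genes moved to -0.21, and the split of the members became 9 positive and 29 negative.

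Ptgs2 had the lowest p of a member in females. Female mutants 1, 3 and 6 had 21.4, 28.7 and 26.7 CPM, and female wild types 2, 4 and 5 had 18.2, 16.2 and 14.6 CPM. All 3 mutants lay above all 3 wild types, and the log2 fold change was 0.62 ± 0.18 (unadjusted p = 0.00413, adjusted p = 0.418, edgeR) and 0.56 ± 0.17 without female mutant 3. Nr4a2 also did not overlap, with 67.5, 136 and 106 CPM in female mutants, against 56.2, 52.7 and 50.5 CPM in female wild types. Its log2 fold change was 0.94 ± 0.29, or 0.71 ± 0.27 without female mutant 3, the highest of the group. Klf6, a growth-regulating zinc-finger factor, had 65.5, 112 and 71.1 CPM in female mutants and 56.2, 58.9 and 59.8 CPM in female wild types, a log2 fold change of 0.48 ± 0.17, or 0.23 ± 0.074 without female mutant 3. The adjusted p was 0.418 for both Nr4a2 and Klf6.

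Egr4 and Nptx2 lay lower in all 3 female mutants. Egr4 had 7.08, 3.48 and 10.6 CPM in female mutants, against 11.6, 14.8 and 15.2 CPM in female wild types, and a log2 fold change of -0.81 ± 0.37 (unadjusted p = 0.0467, adjusted p = 0.422, edgeR), or -0.64 ± 0.34 without female mutant 3. Nptx2 had 30.1, 17.04 and 32.01 CPM in female mutants, against 32.8, 38.3 and 37.6 CPM in female wild types, and a log2 fold change of -0.40 ± 0.21. Dusp14, the next by p, had 29.4, 16.6 and 39.1 CPM in female mutants and 36.7, 42.5 and 57.6 CPM in female wild types; the groups overlapped, and the log2 fold change was -0.62 ± 0.29. The classical markers Fos and Arc had log2 fold changes of -0.15 ± 0.27 and -0.52 ± 0.47, and of 0.0041 ± 0.26 and -0.11 ± 0.31 without female mutant 3. Leaving out female mutant 6 brought 14 members to an unadjusted p below 0.05, 4 higher and 10 lower in mutants, against 17.2% of genes.

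In males more fold changes were positive. Again 0 of 38 members passed an adjusted p of 0.05, as did 0% of genes, but 28 fold changes were positive and 10 negative, with a median of 0.26, against 0.0050 over all genes. All 7 AP-1 subunits, all 3 NR4A receptors, all 8 growth-arrest and signalling regulators and 4 of 5 DUSP phosphatases had positive fold changes. So had 2 of 4 EGR factors, 2 of the 5 genes Npas4, Bhlhe40 and the Krüppel-like factors, and 2 of 6 synaptic and secreted genes. Without male wild-type 8 the split of the members was 24 positive and 14 negative. The 4 members at an unadjusted p below 0.05 (10.5%, against 2.78% of genes) were all higher in mutants, as 1.03% of genes were at that p, and 7 members separated the groups without overlap, all higher in mutants, against 6.88% of genes in that direction (13.5% in either). These 7 were Fosl2, Jun, Dusp1, Dusp4, Dusp5, Gadd45b and Gadd45g.

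Gadd45b had 6.92, 7.63 and 9.72 CPM in male mutants 7, 10 and 27, against 4.77, 5.65 and 6.48 CPM in male wild types 8, 12 and 13. Its log2 fold change was 0.52 ± 0.19 (unadjusted p = 0.0181, adjusted p = 0.9999, edgeR). Dusp4 had 18.6, 14.002 and 17.7 CPM in male mutants, against 8.86, 13.7 and 12.6 CPM in male wild types, a log2 fold change of 0.51 ± 0.19. Both genes separated the 2 groups, with male wild-type 8 lowest in each. Dusp5 had 12.1, 16.2 and 11.6 CPM in male mutants and 6.41, 10.9 and 9.99 CPM in male wild types, a log2 fold change of 0.55 ± 0.25; it shares exon bases with a gene on the opposite strand. Klf4, whose groups overlapped, was at 0.62 ± 0.28, and Fos at 0.35 ± 0.27, with 34.0, 17.8 and 30.1 CPM in male mutants and 18.2, 18.7 and 27.3 CPM in male wild types.

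Of the negative fold changes in males, those of Npas4 and Homer1 had the lowest p. Npas4 had 17.7, 18.4 and 26.1 CPM in male mutants, against 21.9, 27.8 and 33.8 CPM in male wild types, a log2 fold change of -0.42 ± 0.26, beside -0.37 ± 0.27 in females. Homer1 had 368, 245 and 341 CPM in male mutants, against 314, 494 and 368 CPM in male wild types, a log2 fold change of -0.30 ± 0.24. In both genes the highest mutant lay among the wild types. The count of 4 at an unadjusted p below 0.05 was 0 without male wild-type 8 (median log2 fold change 0.15), against 1.76% of genes. It was 1 without male mutant 7 (2.44%) or male mutant 27 (2.75%). It was 2 without female mutant 1 (2.73%) or any 1 of female wild types 2, 4 and 5 (2.52%, 2.3% and 2.61%), whose spread the fit pools. It was 7 without male mutant 10 (1.88%) and 8, of which 1 was lower in mutants, without female mutant 3, where the share of genes was 8.43%.

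**Figure D3:**
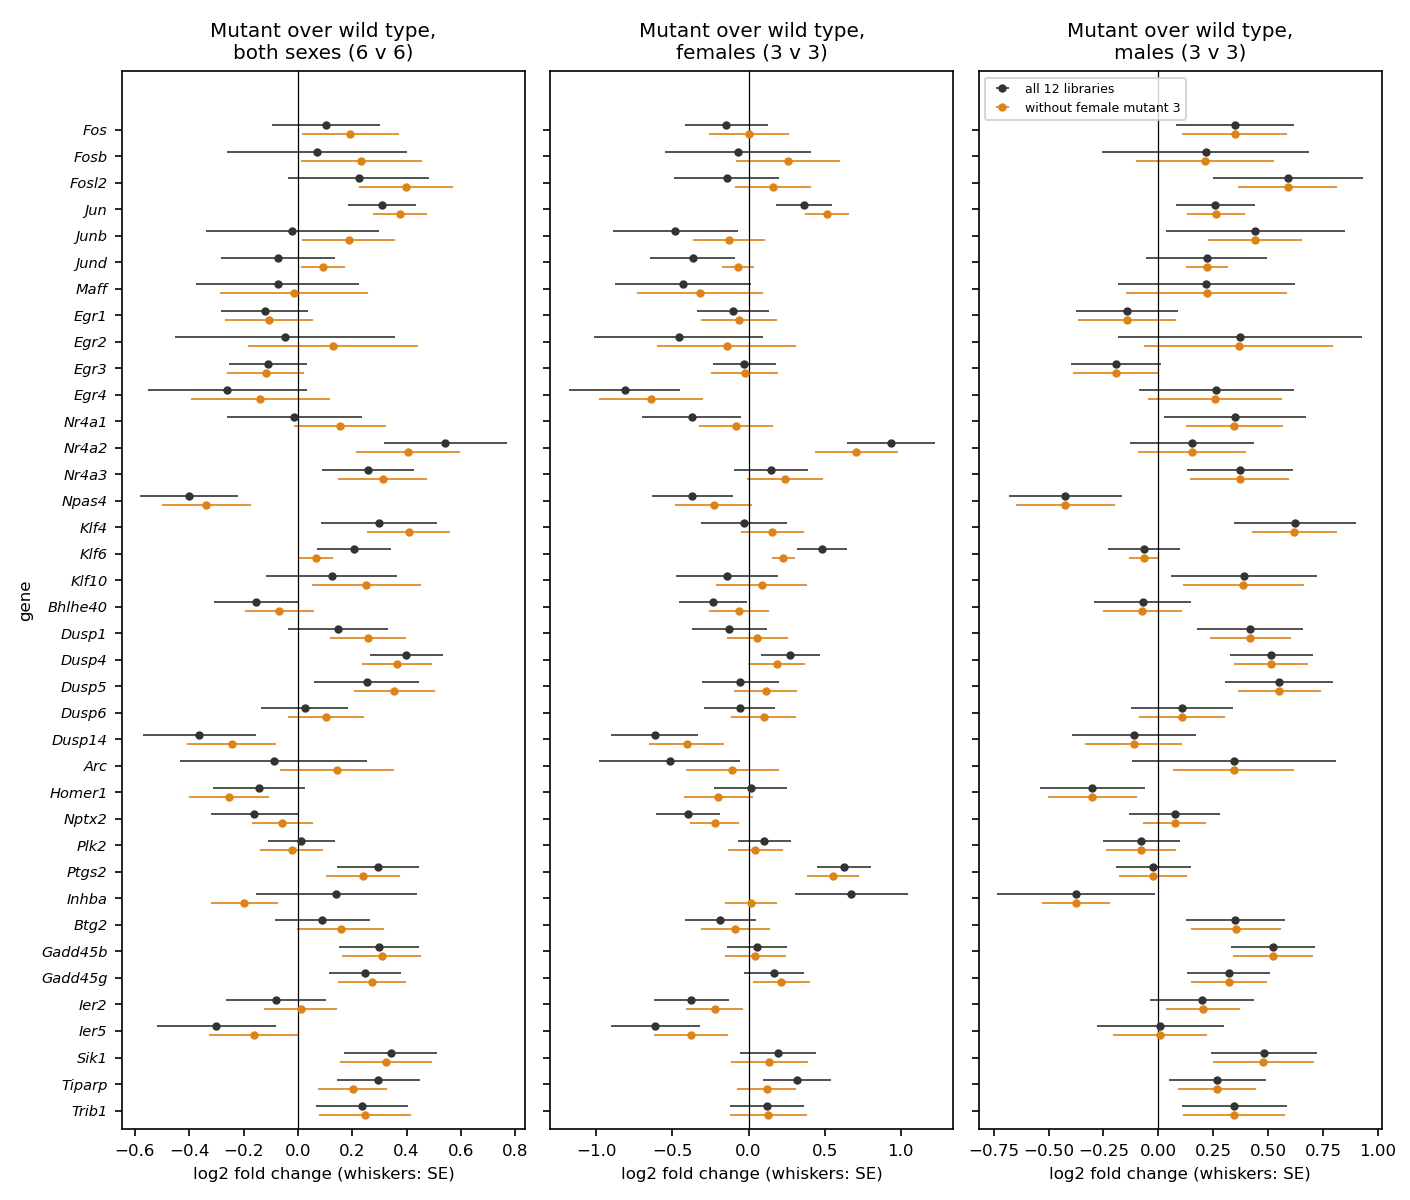
Log2 fold change of mutant over wild type with its SE for each member, over both sexes, in females and in males, with all 12 libraries (dark) and without female mutant 3 (orange). In males 28 of 38 points lie right of 0; in females 14 do with all libraries and 21 without female mutant 3.

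The difference between the sexes was tested itself, as the fold change in females minus that in males. By edgeR 0 members passed an adjusted p of 0.05, as did 0% of genes. Of the differences 11 were positive and 27 negative, with a median of -0.38, against -0.027 over all genes. On library totals the split was 5 and 33, with a median of -0.59, against -0.24 over all genes. At an unadjusted p below 0.05 stood 2 members, against 7.67% of genes. Ptgs2 differed by 0.65 ± 0.25, with 20.3, 15.5 and 20.3 CPM in male mutants and 15.5, 18.7 and 22.6 CPM in male wild types beside the female values above. Klf6 differed by 0.55 ± 0.23, with 58.4, 59.4 and 62.3 CPM in male mutants and 61.3, 60.9 and 66.5 CPM in male wild types. The adjusted p was 0.555 for each of them. On the negative side Egr4, at 11.7, 7.69 and 15.0 CPM in male mutants and 5.18, 12.8 and 10.6 CPM in male wild types, differed by -1.08 ± 0.51, and Dusp5, at 10.6, 5.42 and 12.5 CPM in female mutants and 10.9, 9.79 and 11.4 CPM in female wild types, by -0.60 ± 0.35. Without female mutant 3 the split was 12 and 26, with 2 members at an unadjusted p below 0.05, against 10.6% of genes. The count of 2 was 11 without female mutant 6 (against 12.6% of genes) and 4 without female mutant 1 (16.2%) or male wild-type 12 (6.9%). It was 1 without male mutant 7 (5.77%), male wild-type 13 (6.76%) or any 1 of female wild types 2, 4 and 5 (4.73%, 3.02% and 6.78%).

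Sex is the other factor of the design. Over both genotypes 31 members had a positive log2 fold change of females over males and 7 a negative one, with a median of 0.10, against -0.016 over all genes; with library totals the split was 19 and 19, and the median over all genes -0.11. By edgeR 0 members passed an adjusted p of 0.05, against 0.0389% of genes (7 genes), and 2 stood at an unadjusted p below 0.05, against 1.77% of genes. Egr1 had 354, 381 and 583 CPM in the 6 females, against 211, 335 and 392 CPM in the 6 males (lowest, median and highest). The ranges overlapped, and the log2 fold change was 0.40 ± 0.16 (unadjusted p = 0.0267, adjusted p = 0.897, edgeR). Trib1 had 16.9, 25.1 and 31.0 CPM in females, against 15.1, 17.8 and 26.1 CPM in males, and a log2 fold change of 0.37 ± 0.17. Npas4 and Jun had the lowest p among the negative values, at -0.24 ± 0.18 and -0.13 ± 0.13. Npas4 had 12.0, 21.1 and 27.1 CPM in females and 17.7, 23.98 and 33.8 CPM in males, and Jun 33.5, 40.4 and 62.5 CPM in females and 35.5, 48.3 and 54.5 CPM in males. Without female mutant 3 the split was 33 and 5, with a median of 0.17, against 0.0014 over all genes. The count of 2 was 7 without female mutant 3 (against 2.67% of genes), 4 without female mutant 1 (1.59%) and 1 (lower in females) without female mutant 6 (1.99%). It was 0 without male mutant 10 (1.28%), female wild-type 5 (1.28%), male wild-type 8 (4.65%) or male wild-type 13 (1.44%).

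The members varied more between animals of one group than most genes did. The SD of log2 CPM around the mean of a library's own group was computed for genes of 5 CPM or more. Without female mutant 3 its median was 0.304 over 37 members, against 0.126 over 11613 genes; 35 of the 37 lay above the gene median and 26 above the 90th percentile of genes, 0.246. With all 12 libraries the medians were 0.358 over 36 members and 0.231 over 11636 genes, with 32 members above the gene median and 9 above the 90th percentile. This is a description, and no test was made of it.

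Egr2 varied most, with an SD of 0.671 and a 4.94-fold range between the highest and lowest of 11 libraries. Fosb followed at 0.504, Egr4 at 0.487, Arc at 0.443 and Klf10, a TGF-beta-induced repressor, at 0.437. Fos stood at 0.368 and a 1.90-fold range. At the other end, Klf6 had an SD of 0.0612 and a 1.27-fold range, and Jund, the AP-1 subunit that resting cells also express, 0.122 and 1.38-fold. These 2 were the members below the gene median. By genotype, the SD was larger in mutants than in wild types for 34 of 36 members with all libraries, where 84.9% of genes were, and for 21 of 36 without female mutant 3, where 38.5% of genes were; the median SDs without it were 0.319 in mutants and 0.272 in wild types.

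**Figure D4:**
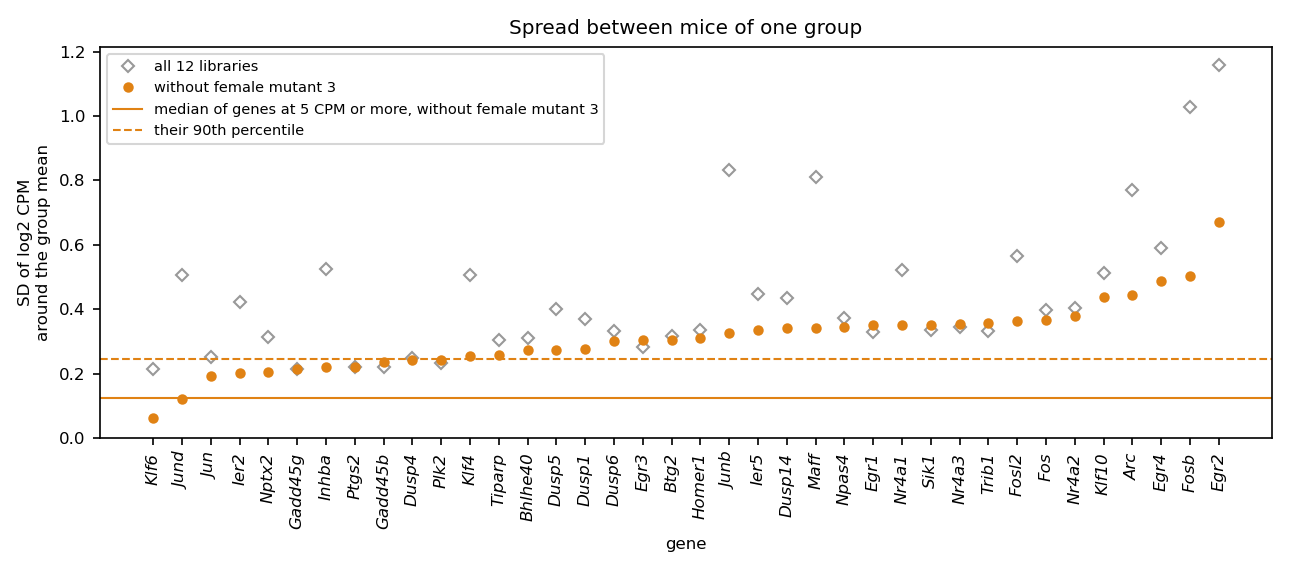
SD of log2 CPM around the group mean for each of 38 members, with all 12 libraries (open diamonds) and without female mutant 3 (orange points), sorted by the orange points. The solid and dashed orange lines are the median and 90th percentile of genes at 5 CPM or more without female mutant 3. All members but Klf6 and Jund lie above the solid line.

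The extremes of the members fell in a few animals of both genotypes. Of 37 members over the 11 libraries without female mutant 3, 14 were lowest in male mutant 10 and 14 in male wild-type 8, together 28, where 36.6% of genes were lowest in one of these. The highest value lay in female wild-type 5 for 15 members and in female mutant 6 for 9, together 24, where 23.8% of genes were highest. These 4 animals, 1 of each group, were picked after the values were seen. The summed level of the 8 striatal markers was lowest in male mutant 10, at 151 CPM, and highest in female wild-type 5, at 1171 CPM. The mitochondrial share was 10.4% in male wild-type 8, the highest of the 11. The part of either in the member levels was not tested.

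Female mutant 3 held extremes in both directions, among genes in general as among the members. Of the 37 members of 5 CPM or more it was the lowest of 12 libraries for 19, where 46.7% of 11613 such genes were lowest in it, and the highest for 7, where 34.6% of genes were highest in it. Over all 38 members it was the lowest for 20 and the highest for 7, namely Nr4a2, Klf6, Dusp4, Homer1, Ptgs2, Inhba and Tiparp. Of the 20 lowest there, 11 were also lowest of the other 11 libraries in male wild-type 8 (55.0% of the 20, 78.6% of the 14) and 4 in male mutant 10 (20% and 28.6%). Of genes of 5 CPM or more, 22.5% were lowest of the 11 in male wild-type 8 and 14.1% in male mutant 10. Their overlap with the genes lowest in female mutant 3 was not computed, so the overlap of members has no background beside it. Counts in female mutant 3 were few for several members, with 45 for Fos, 13 for Junb and 3 for Egr2.

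Pearson's r with Fos across animals was above 0 for 35 of 36 members, and 0 members passed the permutation test once adjusted over all genes. The relation of log2(CPM + 0.1) to that of Fos was computed over the 11 libraries without female mutant 3 for 11612 genes of at least 5 CPM, 36 members among them, with two-sided permutation p-values (100000 permutations) adjusted over the 11612 relations by Benjamini-Hochberg. The median r was 0.531 over the members and 0.0326 over the genes, of which 54.4% had an r above 0. At an unadjusted permutation p below 0.05 stood 15 members by r, against 3.59% of genes, 16 by Spearman's rho, against 3.13%, and 15 by both, against 2.47%. These 15 were Junb, Nr4a1, Nr4a3, Sik1, Egr2, Arc, Trib1, Dusp1, Fosb, Dusp6, Klf10, Tiparp, Dusp4, Fosl2 and Klf4, all with an r above 0, as 1.54% of genes had at that p. After adjustment 0 of the 11612 genes passed by either measure, and the lowest adjusted p of a member was that of Nr4a3. Without the 2 libraries farthest from the Fos median, male mutant 10 and male wild-type 8, r of the 15 was 0.475 to 0.882 over 9 libraries. These 15 were picked over 11 libraries that include those 9, and no value over all genes stands beside the range. It is therefore a description. Over the same 9 libraries r of the other members ran from -0.412 (Inhba) to 0.676 (Gadd45b). It was below 0 for Homer1, Dusp14, Ier5, Egr3, Plk2, Nptx2, Npas4, Jund, Klf6 and Inhba. Group means were not removed here, all 11 libraries share the scaling and the tissue differences given above, and neither genes nor members are independent of one another.

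Junb had the highest Pearson's r with Fos and Nr4a3 the highest Spearman's rho. For Junb r was 0.899 (permutation p = 0.0006, adjusted p = 0.885) and rho 0.827 (permutation p = 0.00287, adjusted p = 1). For Nr4a3 r was 0.840 (permutation p = 0.0001, adjusted p = 0.542) and rho 0.936 (permutation p = 0.0001, adjusted p = 0.488). For Nr4a1 r was 0.854 (permutation p = 0.00105, adjusted p = 1) and rho 0.818 (permutation p = 0.00327, adjusted p = 1). Without the 2 farthest libraries r was 0.844 for Junb, 0.801 for Nr4a3 and 0.698 for Nr4a1, and with group means removed over 11 libraries it was 0.880, 0.810 and 0.812. For Arc r was 0.771 (permutation p = 0.00686, adjusted p = 1) and rho 0.782 (permutation p = 0.00628, adjusted p = 1). The lowest r were those of Jund, Klf6, Npas4 and Inhba, at 0.0516, 0.113, 0.103 and -0.0472, with rho of -0.127, -0.118, -0.0727 and -0.0182, and permutation p of r of 0.881, 0.743, 0.761 and 0.889, in that order, each with an adjusted p of 1. With group means removed their r was -0.189, 0.388, 0.502 and 0.0968.

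**Figure D5:**
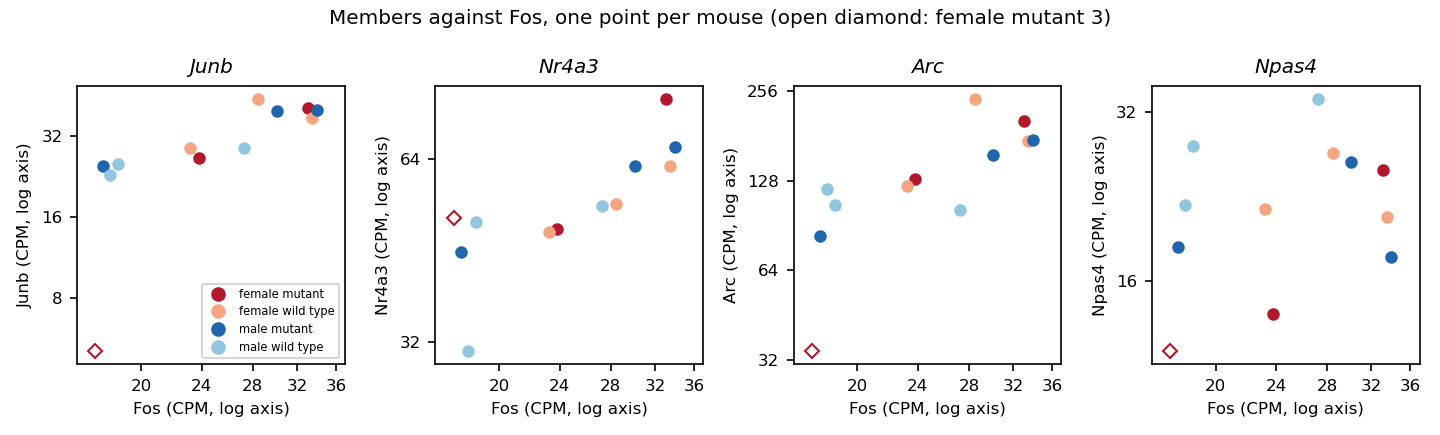
Junb, Nr4a3, Arc and Npas4 against Fos, in CPM on logarithmic axes, 1 point per mouse, with female mutant 3 as an open diamond. Over the 11 filled points r is 0.899 for Junb, 0.840 for Nr4a3, 0.771 for Arc and 0.103 for Npas4, where it is 0.502 with group means removed.

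With group means removed, and again over 11 libraries, the non-members of at least 5 CPM whose log2 CPM was most like that of Fos were 1810030O07Rik (r = 0.991), Chmp2b, Ids, Ankrd49, Gnai1, 1700016P03Rik, Dlc1 and Lrrtm4 (r = 0.924), given as a description with no test. Genes of at least 5 CPM had a median r of 0.0272 with Fos in this way, and the 36 members one of 0.578. With female mutant 3 kept, r of Chmp2b was -0.133 and that of Ankrd49 0.043.

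The machinery above these genes and other genes of the same response were read from 2 further lists. Of 33 upstream kinases, CREB and its coactivators, serum response factor and MEF2 proteins, 0 passed the adjusted test in either direction over both sexes. With all 12 libraries 9 fold changes were positive and 24 negative, with a median of -0.058. Without female mutant 3 the split was 13 and 20, with a median of -0.030, and again 0 passed. Camkk2, a calcium-activated kinase, had the lowest p with all libraries. It averaged 189 ± 37.6 CPM in mutants and 254 ± 32.1 CPM in wild types (SD, n = 6 each). Its log2 fold change was -0.43 ± 0.14 with an adjusted p of 0.950 in the edgeR fit, and -0.32 without female mutant 3. Prkacb, Mef2d and Rps6ka5 came next, at 0.15, -0.20 and -0.15. Of 37 tested genes among 38 other activity-regulated ones, 0 passed with or without female mutant 3. With all libraries 21 fold changes were positive and 16 negative, with a median of 0.018, and without female mutant 3 the split was 24 and 13, with a median of 0.038. Hbegf, Rgs4, Nfil3 and Mcl1 had the lowest p, with log2 fold changes of -0.28, -0.27, 0.26 and 0.19.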

How the data were processed

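Cortex RNA of 12 mice was sequenced as paired reads of 150 bases. Per the submitters' processing notes, Trimmomatic 0.36, HISAT2 2.1.0, HTSeq 0.11, Cufflinks and the build GRCm38.p6 were used. Strand setting and annotation release were not given in the sources used here. The authors deposited whole-number counts of reads, not normalized, for each gene in each library. Of the 54232 rows, 54165 matched GENCODE M21, and each column matched 1 sample title. Of the members, 7 share exon bases with a gene on the opposite strand (Jun, Junb, Jund, Bhlhe40, Dusp1, Dusp5 and Tiparp), so their counts are uncertain.

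From these counts, genes were kept by filterByExpr over 4 groups, scaled by TMM and tested with edgeR 4.0.16 (R 4.3.3) by the quasi-likelihood test, with sex and genotype as terms or with 1 mean per group. The Benjamini-Hochberg adjustment covered every gene in the fit, with a threshold of 0.05; the SE is the log2 fold change divided by the square root of F. Log2 CPM for the spread used a prior count of 2. Alternatives were DESeq2 1.42.0, limma-voom with library weights (limma 3.58.1), other scalings, no filter, no sex term, the mitochondrial share as a covariate and each library left out. The procedure was tested on simulated data. The members, the lists and the genes given by library were chosen with earlier results of these data known. The genes given in full are a fixed set of 14 members plus those of lowest p in each direction of each comparison.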

Additional observations from a re-analysis of the deposited data

Results flagged for a closer look

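Within the 6 mutant and the 6 wild-type libraries, 9 of 76 sets of 6 values had 1 animal whose gap to its nearest neighbour exceeded 0.625 of the whole range, the 95% critical value of Dixon's test for 6 samples. For independent sets chance gives about 1 in 20, but these sets share the same 12 libraries. The rate over all genes was not computed, so the count is not read as a trait of the members. Female mutant 3 was the lowest of 12 for 46.7% of genes of 5 CPM or more and the highest for 34.6%. Of the 9, 4 lay in female mutant 3, the shallow library: Klf6 at 112 CPM and Inhba at 63.5 CPM were the highest mutant values, and Jund at 12.8 CPM and Nptx2 at 17.04 CPM the lowest. Male wild-type 8 was the lowest wild type for Fosl2, at 24.7 CPM, and Dusp5, at 6.41 CPM. Female wild-type 5 was the highest wild type for Egr1, at 583 CPM, and Dusp6, at 86.6 CPM. Nr4a2 was highest in male wild-type 13, at 82.4 CPM, among wild types.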

How the results depend on the processing

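By the adjusted p 0 members were called in any comparison under the alternatives run for it, planned or added (no sex term and the mitochondrial covariate were run over both sexes only), and of 722 member values over both sexes 55 changed sign, in 13 members, none of them called (36 with a library left out, 19 otherwise; 25 members had none). Library weights turned Arc (0.11), Junb (0.086), Jund (0.014), Maff (0.020) and Nr4a1 (0.11) positive and Inhba (-0.15) and Plk2 (-0.096) negative. The mitochondrial share as a covariate turned Arc (0.13), Egr2 (0.19), Ier2 (0.036), Junb (0.22), Jund (0.12), Maff (0.021) and Nr4a1 (0.18) positive and Inhba (-0.24) and Plk2 (-0.022) negative. This covariate mostly sets female mutant 3 apart from the other libraries. Library totals turned Dusp6 (-0.047) and Plk2 (-0.085) negative, and no filter Plk2 (-0.0026). With each library left out in turn, the values ran over -0.27 to 0.14 for Arc, -0.0022 to 0.17 for Btg2, -0.057 to 0.13 for Dusp6, -0.32 to 0.19 for Egr2, -0.0072 to 0.19 for Fos, -0.20 to 0.23 for Fosb, -0.17 to 0.0099 for Ier2, -0.20 to 0.25 for Inhba, -0.16 to 0.19 for Junb, -0.14 to 0.092 for Jund, -0.18 to 0.065 for Maff, -0.11 to 0.16 for Nr4a1 and -0.035 to 0.091 for Plk2. The median of the members stayed positive, at 0.0038 to 0.19. The count of members at an unadjusted p below 0.05 moved with the fit, as did the share of all genes. In females it moved from 4 (11.8% of genes) to 7 with DESeq2 (14.4%) or no filter (8.43%). In males it moved from 4 (2.78%) to 9 with weights (8.91%) and 2 on library totals (2.24%). For the difference it moved from 2 (7.67%) to 4 with DESeq2 (9.6%), 5 without a filter (6.56%) and 0 on totals (5%). For sex it moved from 2 (1.77%) to 1 with weights (8.08%) and 0 on totals (1.77%).

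The number of genes called over both sexes, 1 with edgeR, was 29 with DESeq2, 22 with library weights, 2 with the mitochondrial share as a covariate, 0 on library totals and 0 to 2 with a library left out, 2 being without female mutant 3. In females it was 0 and became 6 with DESeq2, 4 with weights and 2 without a filter. In males 0 became 4 with DESeq2, 1 with weights and 0 to 1 with a library left out. For the difference 0 became 4 with DESeq2, 1 with weights, 1 without a filter and 0 to 1 with a library left out. For sex 7 became 12 with DESeq2 and 7 to 8 with a library left out. DESeq2 and weights without female mutant 3, added after seeing the data, gave 53 and 4 over both sexes, 15 and 1 in females and 16 and 1 in males, and DESeq2 gave 4 for the difference and 13 for sex. The cause was not tested. Where a library is left out, its sex and genotype hold 2 mice, whose spread is pooled with that of the others. No paired analysis was possible because each animal number occurs in 1 group only. Depth limits Maff, Egr2, Fosb and Ier2 most, at 5 counts or fewer in female mutant 3.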
